A study of Mus musculus with 9 samples.

Results

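The transcripts of the mouse mitochondrial genome were described in liver of mice that ate high-fat food (HFD) kept in a freezer or in a fridge. The set held every row of the gene table whose symbol starts with mt-, and each of these rows carried at least 1 count. It comprised 37 genes of 33211 in the table (19775 with any count), namely 13 protein genes, 2 ribosomal RNA (rRNA) genes and 22 transfer RNA (tRNA) genes, and all 37 were among the 14220 genes that passed the filter on low counts and were tested.

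Male C57BL/6 mice (C57BL6/J in the study's methods), 8 weeks old at the start, ate the diet for 7 weeks. Once opened, the food was kept for 7 days before use at -20 °C for the HFDfre group or at 4 °C for the HFDfri group. Both groups thus ate the same HFD product, and no group on another diet was included. The study reported that the stored foods differed in lipids, with relatively more medium-chain triglyceride in HFDfri food. Liver RNA of 5 HFDfre and 4 HFDfri samples was sequenced, and the question was whether the storage of the food was accompanied by a difference in mitochondrial transcripts. The labels name each sample but do not say that each came from its own animal, so a p-value here measures the spread between these samples.

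Mitochondrial DNA is a small circular genome that is transcribed from both strands as long RNAs spanning many genes. The tRNA genes lie between most of the other genes, and their excision from the precursor releases the messenger RNAs and the rRNAs. The encoded proteins are core subunits of respiratory complexes I, III and IV and of the ATP synthase (complex V), whose other subunits come from nuclear genes, and liver is rich in these transcripts because hepatocytes hold many mitochondria.

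The sequences below are those on which the reading of single genes turns, taken from the GENCODE M21 transcripts (GRCm38, plus strand of the mitochondrial chromosome, 5′ to 3′). The first 3 are neighbouring tRNA genes with some of the lowest p-values of the set, for histidine (mt-Th, chrM:11546-11612), serine (mt-Ts2, chrM:11613-11671) and leucine (mt-Tl2, chrM:11671-11741). The capital in mt-Ts2 marks the single base that it shares with mt-Tl2. The fourth, for phenylalanine (mt-Tf, chrM:1-68), is the member with the smallest difference.
mt-Th: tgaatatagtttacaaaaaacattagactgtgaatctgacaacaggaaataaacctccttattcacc
mt-Ts2: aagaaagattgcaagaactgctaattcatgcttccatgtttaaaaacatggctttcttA
mt-Tl2: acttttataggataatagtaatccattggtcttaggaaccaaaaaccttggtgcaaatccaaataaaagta
mt-Tf: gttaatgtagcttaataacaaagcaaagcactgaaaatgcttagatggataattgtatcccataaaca

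Of the protein genes, 2 show why a count can belong to more than one gene. The end of mt-Atp8 (chrM:7766-7969), a small ATP synthase subunit gene, shares 43 bases with the start of mt-Atp6, shown in capitals. In mt-Nd4l (chrM:9877-10173), a complex I subunit gene, the capitals mark 294 of 297 bases that are identical to the nuclear pseudogene Gm10222 (chromosome 1, 24612407 to 24612700).
mt-Atp8: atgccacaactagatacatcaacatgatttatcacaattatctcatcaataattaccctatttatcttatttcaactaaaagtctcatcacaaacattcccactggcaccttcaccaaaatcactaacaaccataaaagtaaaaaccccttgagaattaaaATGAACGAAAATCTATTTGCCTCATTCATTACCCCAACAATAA
mt-Nd4l: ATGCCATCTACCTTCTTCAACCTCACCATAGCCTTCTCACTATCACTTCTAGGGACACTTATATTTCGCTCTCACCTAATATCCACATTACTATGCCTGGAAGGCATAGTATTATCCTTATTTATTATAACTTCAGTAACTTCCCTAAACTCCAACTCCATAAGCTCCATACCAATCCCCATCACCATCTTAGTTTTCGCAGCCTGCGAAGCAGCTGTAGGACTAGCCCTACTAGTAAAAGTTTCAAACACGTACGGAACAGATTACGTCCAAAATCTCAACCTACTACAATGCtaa

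The totals of the 9 libraries ranged from 58614917 to 69353439 counts, and a ribosomal RNA-like nuclear locus, Gm26924 on chromosome 17, took between 0.466% and 11.1% of them. The hepatocyte markers Alb, Apoa1, Ttr, Serpina1c, Cyp2e1 and Cps1 summed to 96374 to 102292 CPM (counts scaled by the size of the library, so that libraries can be compared) in HFDfre and 84417 to 112202 CPM in HFDfri. The muscle markers reached at most 0.367 CPM in any library, and the summed levels of all 9 cell type marker lists overlapped between the groups. Alas2 of the erythroid list was the only marker with an adjusted p under 0.05 (log2 fold change 0.40, adjusted p = 0.0486), and the other 3 genes of that list, which encode globins, had log2 fold changes below 0. In bulk liver, fewer cells of a type and less RNA per cell cannot be told apart.

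Mitochondrial genes took a lower average share of the counts in HFDfri than in HFDfre. The share was 16.1%, 14.95%, 19.8%, 11.4% and 14.7% in HFDfre 1 to 5. In HFDfri 1 to 4 it was 13.6%, 10.4%, 8.93% and 9.63%. The group means were 15.4% ± 3.03 (SD, n = 5) and 10.6% ± 2.07 (SD, n = 4), a difference of -4.73 percentage points. The groups overlapped through HFDfri 1, which was above HFDfre 4, while the other 3 HFDfri libraries were below every HFDfre library. No test was made on this sum over the members.

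Nearly all of this share came from the protein genes. They made up 14.6% ± 3.03 of HFDfre counts and 10.2% ± 2.14 of HFDfri counts, the rRNA genes 0.744% ± 0.399 and 0.370% ± 0.17, and the tRNA genes 0.0777% ± 0.0160 and 0.0569% ± 0.0173. With the counts of Gm26924 left out of the totals, the mitochondrial share was 16.2% ± 3.07 in HFDfre and 10.9% ± 1.97 in HFDfri. The share of the major urinary protein genes, abundant liver products encoded in the nucleus, went the other way, with 7.54% ± 1.47 in HFDfre and 12.2% ± 2.40 in HFDfri. The groups stood close but did not overlap, with at most 8.94% in HFDfre and at least 9.17% in HFDfri. Of single tested genes, 4.02% were higher without overlap. The urinary protein genes were not among the planned measures. Since shares of 1 library sum to a fixed total, the part of either group of genes in the other's difference was not tested.

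**Figure D1:**
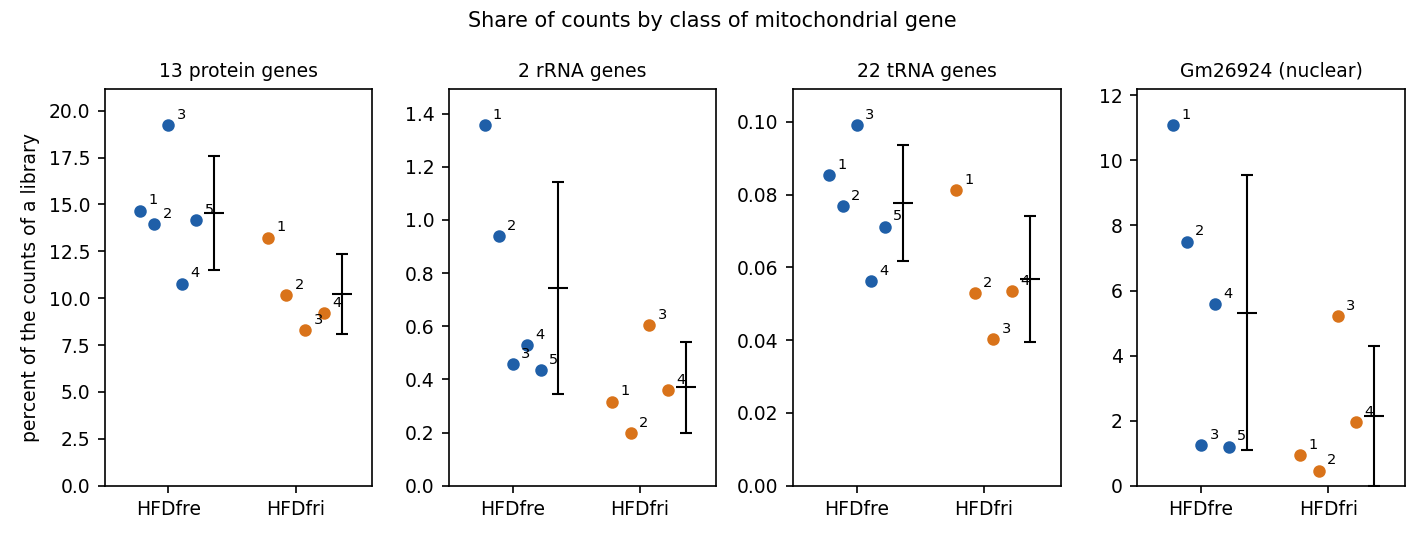
Percent of a library's counts (y axis, linear, separate scale per panel) from the protein, rRNA and tRNA genes of mitochondrial DNA and from Gm26924, by group. Points are libraries with their replicate numbers, and bars are the mean with 1 SD. HFDfre 3 was highest for the protein genes at 19.2% and HFDfri 3 lowest at 8.29%, whereas HFDfre 1 was highest for the rRNA genes and for Gm26924.

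All 37 members had a lower fitted mean in HFDfri, except that mt-Tf was above 0 when library totals replaced the TMM scaling between libraries, and none passed an adjusted p of 0.05 in edgeR. Over all tested genes, 1.05% were called at that threshold, 0.556% lower and 0.499% higher, and 50.9% had a log2 fold change below 0. At an unadjusted p under 0.05, 20 of the 37 were lower and 0 higher (9 of 13 protein genes, 2 of 2 rRNA genes and 9 of 22 tRNA genes), against 9.79% of all tested genes lower. The members of a polycistronic RNA are not independent of each other, so these 20 are not 20 separate observations. The median log2 fold change (HFDfri minus HFDfre) was -0.54 over the protein genes, -1.12 over the rRNA genes and -0.52 over the tRNA genes, beside -0.0068 over all genes tested.

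The call depended on the tool and on 1 library. With limma-voom, as in edgeR, 0 of 37 passed an adjusted p of 0.05, beside 148 of the 14220 genes tested. With DESeq2, the tool named in the study's methods, 10 of 37 passed an adjusted p of 0.05, all lower, against 3.49% of all tested genes. These were mt-Co1, mt-Atp8, mt-Atp6 and mt-Nd3 among the protein genes and mt-Ts1, mt-Tg, mt-Tr, mt-Th, mt-Ts2 and mt-Tl2 among the tRNA genes. Without HFDfri 1, edgeR called 21 of 37, again all lower, against 3.66% of 14463 genes. These 21 were every protein gene but mt-Nd4l, together with 9 tRNA genes.

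**Figure D2:**
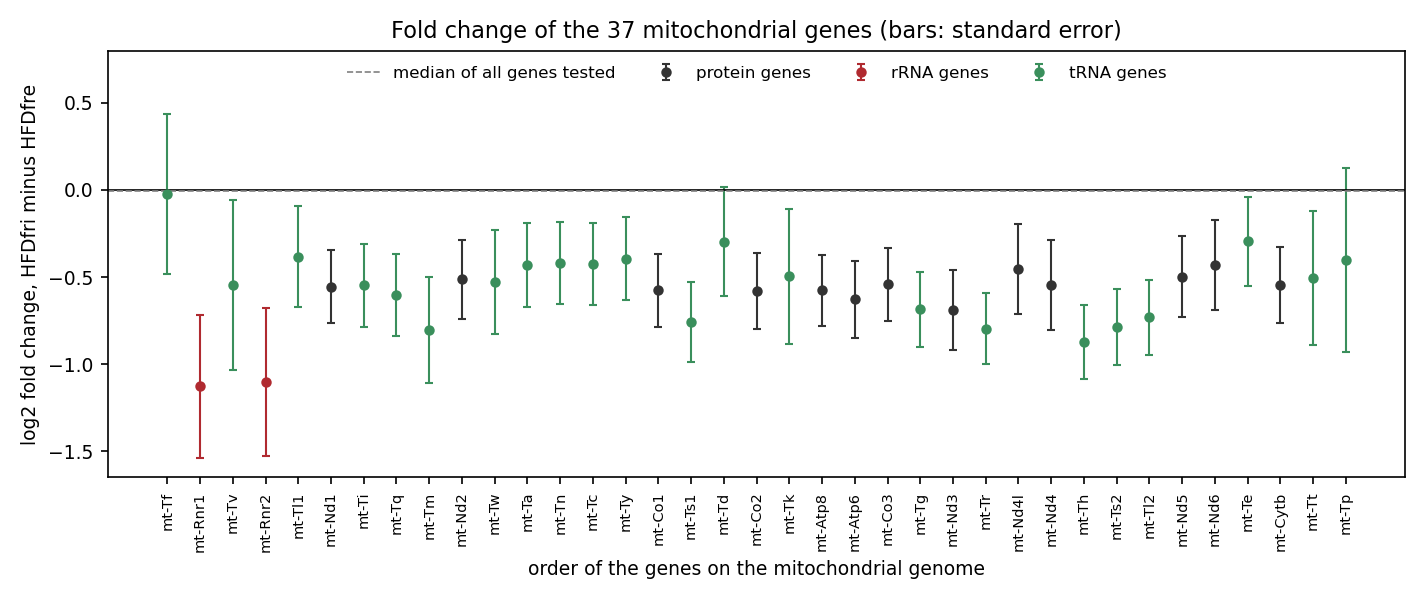
Log2 fold change (HFDfri minus HFDfre, y axis) of the 37 mitochondrial genes in their order on the genome (x axis), coloured by class, with standard errors as bars. Every point lies below 0, from -1.13 for mt-Rnr1 to -0.02 for mt-Tf (above 0 with library totals as the scaling), and no gene passed the adjusted threshold.

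Complex IV, cytochrome c oxidase, passes electrons to oxygen and has its catalytic core encoded by mt-Co1, mt-Co2 and mt-Co3. mt-Co1 (ENSMUSG00000064351, chrM:5328-6872) was the most abundant member, at 52938, 45490, 62095, 32971 and 40007 CPM in HFDfre 1 to 5. Its level in HFDfri 1 to 4 was 42216, 30825, 24427 and 27815 CPM. HFDfri 1 lay within the HFDfre range and the other 3 HFDfri libraries below it. The means were 46700 ± 11299 CPM (SD, n = 5) and 31321 ± 7719 CPM (SD, n = 4), with a log2 fold change of -0.58 ± 0.21 (SE) and an adjusted p of 0.156. mt-Co2 and mt-Co3 had log2 fold changes of -0.58 and -0.54.

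Cytochrome b, the product of mt-Cytb (ENSMUSG00000064370, chrM:14145-15288), is the only subunit of complex III that this genome encodes. It stood at 24265, 20070, 28304, 15030 and 20826 CPM in HFDfre 1 to 5. In HFDfri 1 to 4 the values were 21662, 13586, 11456 and 12815 CPM. As for mt-Co1, HFDfri 1 alone overlapped the HFDfre libraries. The log2 fold change of mt-Cytb was -0.54 ± 0.22 (adjusted p = 0.187).

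The ATP synthase subunit genes mt-Atp6 and mt-Atp8 are read from 1 shared messenger RNA. mt-Atp6 (ENSMUSG00000064357, chrM:7927-8607) was at 13509, 10450, 15324, 7725 and 11719 CPM in HFDfre 1 to 5 and at 10796, 6865, 5886 and 6834 CPM in HFDfri 1 to 4. Again only HFDfri 1 overlapped the HFDfre range. The log2 fold change was -0.63 ± 0.22 for mt-Atp6 (adjusted p = 0.142) and -0.58 ± 0.21 for mt-Atp8 (adjusted p = 0.149), and reads in the 43 shared bases could belong to either.

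Complex I, which takes electrons from NADH, draws 7 of its subunits from this genome, and their median log2 fold change was -0.51. mt-Nd3 (ENSMUSG00000064360, chrM:9459-9806) had the largest difference of the 13 protein genes. It was at 1347, 952, 1600, 865 and 1320 CPM in HFDfre 1 to 5. It was at 1116, 566, 571 and 762 CPM in HFDfri 1 to 4. HFDfri 1 was above HFDfre 2 and 4, and the remaining HFDfri libraries were below all of HFDfre. The log2 fold change was -0.69 ± 0.23 (adjusted p = 0.129).

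mt-Nd6 (ENSMUSG00000064368, chrM:13552-14070), the only protein gene annotated on the minus strand, had the smallest difference of the 13. Its levels were 2929, 2084, 2779, 1597 and 1938 CPM in HFDfre 1 to 5 and 2771, 1466, 1124 and 1368 CPM in HFDfri 1 to 4. HFDfri 1 was above 3 of the 5 HFDfre libraries, and the log2 fold change was -0.43 ± 0.26 (adjusted p = 0.372). Without HFDfri 1 it was -0.79 (adjusted p = 0.0361), and mt-Nd4l, at -0.73, then had a smaller difference. Whether the counting used strand is not given in the sources used here, so reads of mt-Nd6 and antisense reads across it cannot be told apart. mt-Nd1, mt-Nd2, mt-Nd4, mt-Nd4l and mt-Nd5 had log2 fold changes between -0.55 (mt-Nd1) and -0.45 (mt-Nd4l). The value of mt-Nd4l is uncertain because its counts were 0.983 to 1.11 times those of the identical pseudogene Gm10222 in the 9 libraries, and Gm10222 had a log2 fold change of -0.40 ± 0.26. Reference transcripts also hold nuclear copies of other protein genes of the set. On chromosome 1, copies of mt-Co2 (681 of 684 bases), mt-Co3 (783 of 784), mt-Atp6 (678 of 681) and mt-Nd4 (876 of 1378) were 100% identical. The copies there of mt-Nd3 (345 of 348 bases) and of part of mt-Co1 (483 of 1545) were 99.7% and 99.8% identical. On chromosome 2, a copy of mt-Co1 (1545 of 1545 bases) was 97.6% identical. These copies had no row in this table, so where reads from them were counted is not known. Adding the 2 copies with counts, Gm10222 and Gm4076, gave mitochondrial shares of 15.5% in HFDfre and 10.8% in HFDfri, and does not cover the copies without a row.

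**Figure D3:**
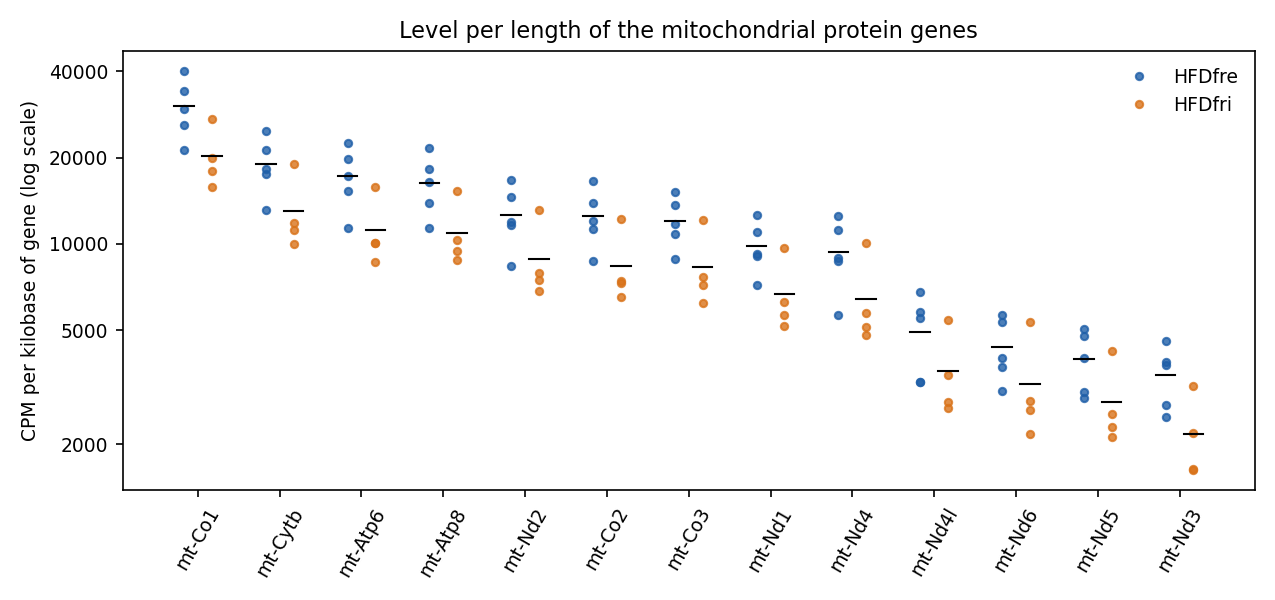
CPM per kilobase of gene length (y axis, log scale) of the 13 protein genes, ordered by the HFDfre mean. Points are libraries, blue for HFDfre and orange for HFDfri, and black lines are group means. The HFDfri mean is lower for each gene, and for each gene the groups overlap. The place of mt-Nd4l is uncertain, since its reads may be divided with the identical Gm10222.

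Per kilobase of length, mt-Co1 stood highest and mt-Cytb next in all 9 libraries. The HFDfre means were 30227 ± 7313 CPM per kilobase for mt-Co1 and 18968 ± 4329 for mt-Cytb, followed by mt-Atp6 at 17247 ± 4266 and mt-Atp8 at 16333 ± 3956. mt-Atp6 and mt-Atp8 exchanged places between libraries. mt-Nd2, mt-Co2 and mt-Co3 held places 5 to 7, and mt-Nd1 and mt-Nd4 places 8 and 9, in every library. The lowest per length were mt-Nd4l, mt-Nd6, mt-Nd5 and mt-Nd3, with HFDfre means from 4942 down to 3497 CPM per kilobase. The place of mt-Nd4l is uncertain, because the identical Gm10222 took nearly as many counts. In HFDfre the means were 1407 CPM for Gm10222 and 1468 CPM for mt-Nd4l. Nuclear copies of other genes could also affect this order, which was not tested.

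The make-up of the protein-gene pool was compared within each library, which does not depend on the scaling between libraries. As a percent of the counts of the 13 protein genes, mt-Co1 took 31.3% ± 1.14 in HFDfre and 31.2% ± 1.71 in HFDfri, and mt-Cytb 14.6% ± 0.444 and 14.7% ± 0.190. The groups overlapped for each of the 13 genes. The largest differences in mean share were mt-Atp6, with 7.86% ± 0.478 and 7.51% ± 0.138, and mt-Nd2, with 8.76% ± 0.203 and 9.03% ± 0.451. Counts of mt-Nd6 per 100 counts of the other protein genes were 1.54 ± 0.127 in HFDfre and 1.64 ± 0.208 in HFDfri.

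Single libraries were high or low across many members at once. HFDfre 3 was the highest library for 12 of the 13 protein genes and for 25 of all 37. HFDfri 3 was the lowest for 11 of the 13 protein genes and 20 of the 22 tRNA genes. The 2 rRNA genes went apart, with HFDfre 1 highest and HFDfri 2 lowest for both.

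The rRNAs of the small (mt-Rnr1) and large (mt-Rnr2) subunit of the mitochondrial ribosome had the largest fold differences of the 37 and also the largest spread between libraries. mt-Rnr1 (ENSMUSG00000064337, chrM:70-1024) was at 7091, 4225, 2140, 2312 and 1966 CPM in HFDfre 1 to 5 and at 1543, 809, 2522 and 1615 CPM in HFDfri 1 to 4. mt-Rnr2 (ENSMUSG00000064339, chrM:1094-2675) was at 8669, 5262, 2513, 2749 and 2209 CPM in HFDfre and at 1938, 1011, 3154 and 1866 CPM in HFDfri. HFDfre 1 and 2 stood above all other libraries, and HFDfri 3 above HFDfre 3 to 5, so the groups overlapped. The log2 fold changes were -1.13 ± 0.41 for mt-Rnr1 (adjusted p = 0.154) and -1.10 ± 0.42 for mt-Rnr2 (adjusted p = 0.17).

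Both rRNAs moved between libraries with the nuclear locus Gm26924. Gm26924 took 11.1%, 7.50%, 1.25%, 5.58% and 1.20% of the counts in HFDfre 1 to 5 and 0.931%, 0.466%, 5.21% and 1.95% in HFDfri 1 to 4. As shares of counts, the 2 libraries with the most Gm26924, HFDfre 1 and 2, had the most mt-Rnr1 and mt-Rnr2, and the 2 with the least, HFDfri 1 and 2, had the least. With the Gm26924 share as a covariate, the log2 fold change was -0.43 ± 0.21 for mt-Rnr1 (adjusted p = 0.294) and -0.36 ± 0.21 for mt-Rnr2 (adjusted p = 0.375). Among the libraries under 3% Gm26924, 2 HFDfre and 3 HFDfri, the values were -0.64 ± 0.29 and -0.56 ± 0.29. Without HFDfre 1 they were -0.72 and -0.69.

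The protein genes were ordered differently across the libraries. Their median log2 fold change was -0.63 with the covariate and -0.61 among the libraries under 3%, and the library with the highest protein-gene share, HFDfre 3, was sixth of 9 in Gm26924. Per 100 counts of the protein genes, the rRNA genes had 5.27 ± 2.80 counts in HFDfre and 3.89 ± 2.41 in HFDfri, ranging from 1.96 to 9.25. The difference in this ratio, -1.39, was -0.391 without HFDfre 1, -2.52 without HFDfri 3 and 0.0302 among the libraries under 3% Gm26924, so that its direction was not kept. The ratio of mt-Rnr2 to mt-Rnr1 counts stayed between 1.12 and 1.26 in all 9 libraries. How much rRNA was removed from each library is not given in the sources used here, and its part in these values was not tested.

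**Figure D4:**
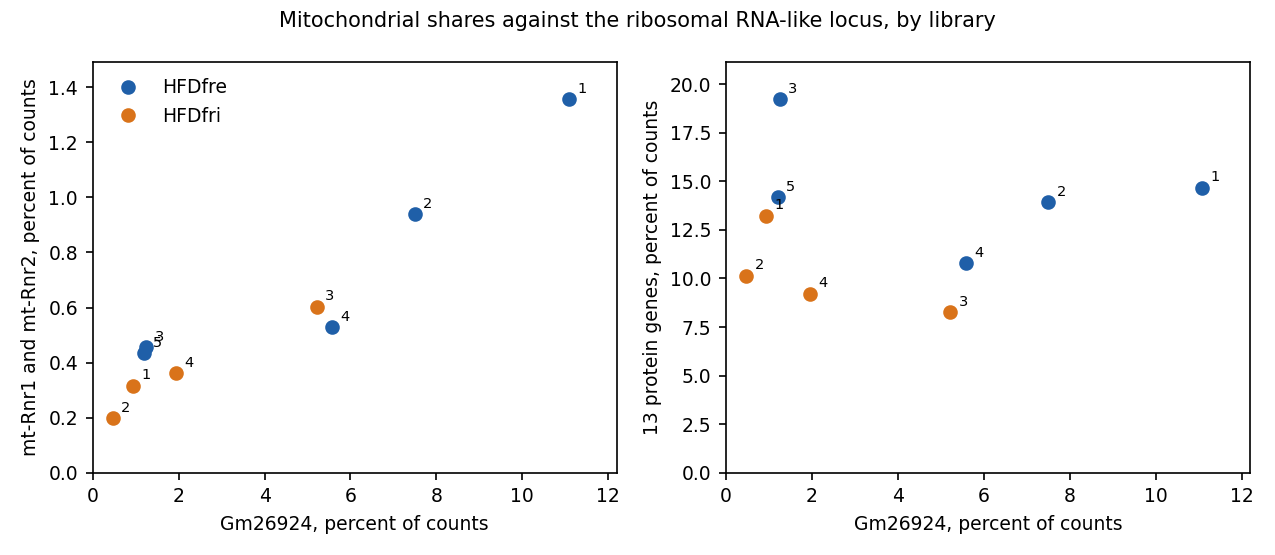
Share of counts from the mitochondrial rRNA genes (left y axis) and from the protein genes (right y axis) against the share of Gm26924 (x axes), one point per library, numbered by replicate. HFDfre 1 and 2 lie at the top right for the rRNA genes and HFDfri 2 at the bottom left, whereas HFDfre 3 is highest for the protein genes at 1.25% of Gm26924.

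Mitochondrial tRNAs read the codons of these messages, and each gene serves 1 amino acid or, for serine and leucine, 1 of the codon groups. Mature tRNAs are short, and a read assigned to a tRNA gene may come from longer RNA that crosses it, which cannot be told apart here. Their log2 fold changes ran from -0.87 (mt-Th) to -0.02 (mt-Tf). Relative to the counts of the protein genes, the tRNA counts varied over a 1.26-fold range in the 9 libraries, while the mitochondrial share itself had a 2.22-fold range.

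The histidine tRNA gene mt-Th (ENSMUSG00000064364), the first sequence printed above, was the only member whose groups did not overlap, against 3.66% of all tested genes that were lower without overlap. It was at 9.91, 9.54, 15.9, 7.50 and 9.86 CPM in HFDfre 1 to 5. In HFDfri 1 to 4 it was at 6.605, 4.99, 4.56 and 6.88 CPM. The log2 fold change was -0.87 ± 0.21, and the adjusted p of 0.0668 was the lowest of the 37. The arginine tRNA gene mt-Tr followed with -0.80 ± 0.20 (adjusted p = 0.0763), where HFDfri 1 at 10.93 CPM lay just above HFDfre 4 at 10.88 CPM.

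The 5 tRNA genes between mt-Co3 and mt-Nd5 (mt-Tg, mt-Tr, mt-Th, mt-Ts2 and mt-Tl2) had a median log2 fold change of -0.79, and each had an unadjusted p under 0.05. Among the other 17 tRNA genes the median was -0.43 and 4 reached that level (mt-Ti, mt-Tq, mt-Tm and mt-Ts1). The stretch was chosen after its values were seen, so the difference was not tested. As a share of all tRNA counts, these 5 genes took 7.55% ± 1.20 in HFDfre and 6.45% ± 1.02 in HFDfri, and the groups overlapped. mt-Ts2 and mt-Tl2 share the base capitalised in the printed sequence and may share reads with each other and with mt-Th, which ends directly before mt-Ts2.

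The methionine tRNA gene mt-Tm had a log2 fold change of -0.80 ± 0.30 (adjusted p = 0.167), which was -0.47 with the Gm26924 share as a covariate (adjusted p = 0.48) and -0.14 among the libraries under 3% Gm26924 (adjusted p = 0.92). The serine tRNA gene mt-Ts1 was at -0.76 ± 0.23 (adjusted p = 0.109). The 8 tRNA genes annotated on the minus strand had a median of -0.42 and the other 14 of -0.55. The proline tRNA gene mt-Tp had the widest spread of the tRNA genes, 6.10-fold between its highest and lowest library. Its levels were 65.9, 42.6, 53.4, 15.1 and 23.2 CPM in HFDfre 1 to 5 and 65.5, 32.0, 10.8 and 13.04 CPM in HFDfri 1 to 4, which overlapped widely, and its log2 fold change was -0.40 ± 0.53. It was -1.11 without HFDfri 1 (adjusted p = 0.165) and -0.12 without HFDfri 3. For the phenylalanine tRNA gene mt-Tf the libraries held only 9 to 17 counts, and its log2 fold change was -0.02 ± 0.46.

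Nuclear genes supply the remaining respiratory chain subunits. Of 79 tested, 71 had a log2 fold change below 0, 47 reached an unadjusted p under 0.05 in the lower direction and 0 in the higher, and none passed the adjusted threshold. Over all tested genes, 50.9% were below 0, and 9.79% reached that level lower and 11.4% higher. The median was -0.27 over all 79, -0.27 over the 36 of complex I, -0.25 over the 9 of complex III, -0.38 over the 12 of complex IV and -0.26 over the 18 of complex V. Complex II, which has no subunit in mitochondrial DNA, had a median of 0.04 over 4 genes. These were split, with 2 below 0 and 2 above, from -0.24 to 0.34, and 1 was lower at an unadjusted p under 0.05. Of the subunits named for each complex, Cox4i1 of complex IV was at -0.27 ± 0.11 (adjusted p = 0.186), Ndufs1 of complex I at 0.14 ± 0.11, Uqcrc1 of complex III at -0.0013 ± 0.10, Atp5a1 of complex V at 0.18 ± 0.13 and Sdha of complex II at 0.34 ± 0.17, none past the adjusted threshold.

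The genes that make and handle mitochondrial RNA had medians nearer to that of all genes. Of 15 genes of mitochondrial transcription and DNA maintenance, 3 reached an unadjusted p under 0.05, all higher, and the median was 0.09. Over all tested genes 21.2% reached that level, 11.4% higher and 9.79% lower. The mitochondrial RNA polymerase Polrmt was at -0.05 ± 0.10, the DNA-binding activator Tfam at -0.04 ± 0.09 and the elongation factor Tefm at 0.11 ± 0.12. Of 26 genes of mitochondrial RNA processing and decay, 8 reached that level higher and 3 lower, with a median of 0.12.

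Lrpprc and Slirp, partners in a complex that stabilises mitochondrial messenger RNA, differed in sign. Lrpprc was at 64.7, 66.8, 67.3, 75.4 and 71.6 CPM in HFDfre 1 to 5 and at 79.9, 80.2, 87.7 and 79.4 CPM in HFDfri 1 to 4. Its groups did not overlap, as for 4.02% of all tested genes in the higher direction, and its log2 fold change was 0.24 ± 0.08 (adjusted p = 0.124). Slirp was at -0.39 ± 0.16 (adjusted p = 0.196), with HFDfri 1 within the HFDfre range.

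Among 13 regulators of mitochondrial biogenesis the median was -0.05, with 4 higher and 1 lower at an unadjusted p under 0.05. The lowest p-values belonged to Nfe2l2, a stress-response transcription factor, at -0.42 ± 0.10 (adjusted p = 0.0701) and to the fatty acid receptor Ppara at 0.82 ± 0.25 (adjusted p = 0.108), both named after their values were seen. The nuclear respiratory factor Nrf1 was at 0.37 ± 0.14 (adjusted p = 0.166), the coactivator Ppargc1a at -0.40 ± 0.23 (adjusted p = 0.351) and the nuclear receptor Esrra at -0.33 ± 0.16 (adjusted p = 0.253). The 76 protein genes of the mitochondrial ribosome had a median of -0.10, and 54 of them (71.1%) were below 0, beside 50.9% of all tested genes. At an unadjusted p under 0.05, 11 were lower and 4 higher, a total near the 21.2% of all tested genes. By direction, 9.79% of all tested genes were lower and 11.4% higher at that level. None of the nuclear genes on these lists passed the adjusted threshold in edgeR, and DESeq2 called 17 of 209, of which 16 were lower, beside 3.49% of all tested genes called lower by that tool. Without HFDfri 1, edgeR called 45 of 209 lower, beside 3.66% of all tested genes.

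**Figure D5:**
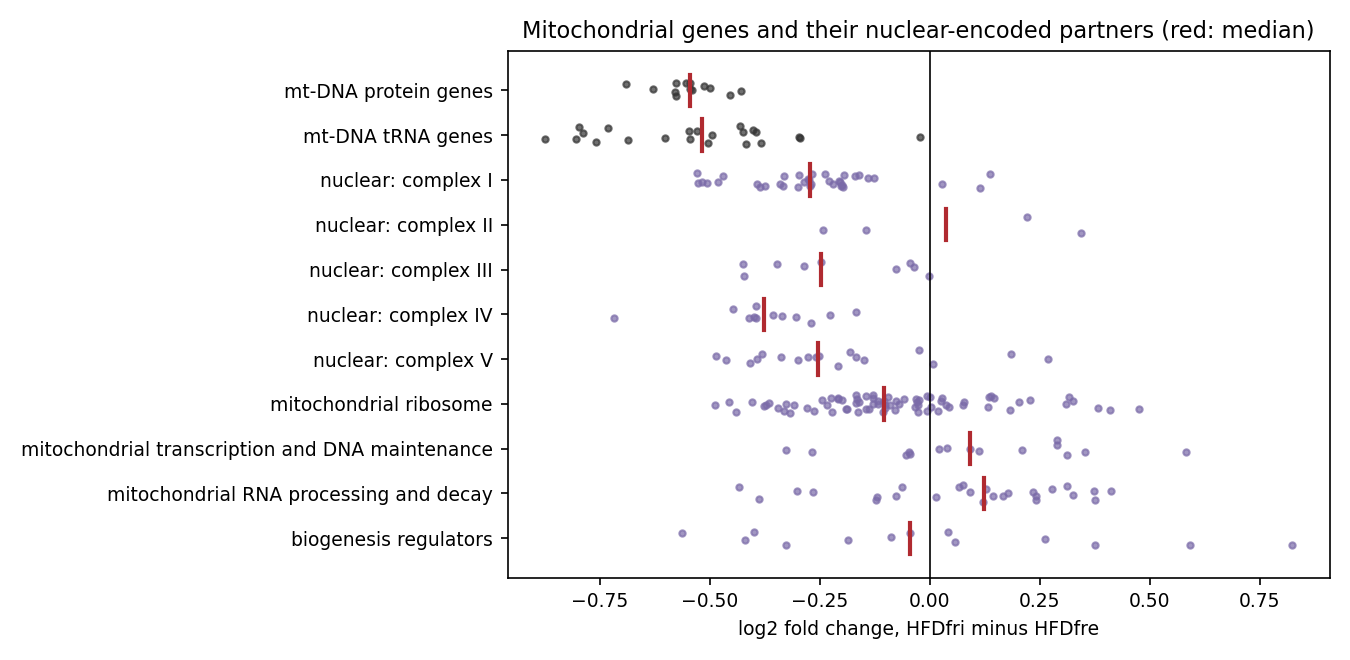
Log2 fold change (HFDfri minus HFDfre, x axis) of the mitochondrial protein and tRNA genes and of the lists of nuclear genes (y axis), one point per gene, with list medians in red. The medians of the mitochondrial protein genes (-0.54) and tRNA genes (-0.52) lie below those of the nuclear subunits of complexes I, III, IV and V, which lie between -0.38 and -0.25.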

How the data were processed

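Liver RNA-seq of 5 HFDfre and 4 HFDfri samples was analysed. Groups came from the sample titles. The authors deposited 1 table of estimated counts per gene, whose values are whole numbers; the submitters' processing notes name HISAT2, StringTie and mm10, with versions not given in the sources used here. The labels name a NEBNext Ultra kit and the study's methods a KAPA RNA HyperPrep kit, so how rRNA was removed or strand marked is unclear. Values pile up at 4 (3990 gene and library pairs, against 2172 at 3 and 1840 at 5), so a count is not always 1 fragment, and an alternative divided the values by 4.

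The fit was edgeR 4.0.16 (R 4.3.3): TMM scaling, filterByExpr, quasi-likelihood test, Benjamini-Hochberg adjustment over 14220 genes, with the SE taken as the absolute log2 fold change over the square root of F. CPM are TMM-scaled, and shares are of raw totals. The libraries held 58614917 to 69353439 counts. Since a count is not always 1 fragment, counting error may be larger than the counts imply, above all for tRNA genes under about 100 counts. On simulated data (14220 genes), 57 of 100 genes changed by a log2 of 1 and 85 of 100 changed by 2 were recovered, with 13 false among 155 calls. Alternatives were DESeq2 1.42.0, limma 3.58.1 (voom), other scalings and filters, a replicate block, Gm26924 as a covariate or limit, and each library left out. The deviations of samples with the same replicate number had correlations from -0.14 to 0.08. The bracketed numbers in the sample titles match other samples, and those matches were not examined. Whether any samples were paired is therefore not known.

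Positions are from GENCODE M21 (GRCm38), which held 96.3% of the identifiers. Nuclear copies were found with blastn 2.17.0 (at least 90% identity over 100 bases). Every mt- gene was a member. Of the nuclear lists, any called gene and 13 chosen genes (Polrmt, Tfam, Tefm, Lrpprc, Slirp, Ppargc1a, Nrf1, Esrra, Ndufs1, Sdha, Uqcrc1, Cox4i1 and Atp5a1) were to be named. Members and lists were chosen with earlier results of these data known.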

Additional observations from a re-analysis of the deposited data

Results flagged for a closer look

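The ratio of mt-Rnr2 to mt-Rnr1 counts in HFDfri had 1 library far from the others: HFDfri 4 was at 1.16, while the other 3 lay between 1.25 and 1.26, so its gap made up 0.93 of the group's range. This was the only case among 84 sets of values searched, where chance would give about 4.2.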

How the results depend on the processing

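Over 22 alternatives, the class medians stayed below 0. The number of mitochondrial genes called was 0 in edgeR, 0 with limma-voom and 10 with DESeq2. It was 0 to 21 as single libraries were left out, the 21 being without HFDfri 1. Of all tested genes, those fits called from 6 (without HFDfre 3 or HFDfre 5) to 1106 (without HFDfri 1). The calls on the nuclear lists were 0 in edgeR, 0 with limma-voom, 17 with DESeq2 and 0 to 47 as single libraries were left out. Of these, 16 of the 17 and 45 of the 47 were lower, beside 3.49% and 3.66% of all tested genes. Leaving out single libraries moved the protein-gene median between -0.79 and -0.44, the rRNA median between -1.42 and -0.70, the tRNA median between -0.86 and -0.34 the difference in rRNA counts per 100 protein-gene counts between -2.52 and -0.391 (0.0302 among libraries under 3% Gm26924) and the difference in mitochondrial share between -5.74 and -3.63 percentage points. Of the 37 mitochondrial genes, only mt-Tf changed sign, with log2 fold changes of 0.0168 with library totals in place of TMM and from -0.253 to 0.0924 as single libraries were left out, above 0 without HFDfre 2, HFDfre 3, HFDfri 3 or HFDfri 4. Of the nuclear list medians, that of complex II ran from -0.0175 to 0.114 over the alternatives. That of the biogenesis regulators ran from -0.0892 to 0.0458, so neither kept its sign. mt-Tf and mt-Tv were not tested in 2 alternatives and had no adjusted p in DESeq2. Library totals moved the median of all genes to 0.05. With a replicate block, 0 of 37 were called and the protein-gene median was -0.59. That fit called 0 of all 14220 genes tested, so its 0 of 37 is not particular to the mitochondrial genes. At an unadjusted p under 0.05 it had 24 of the 37. The cause of these changes was not tested.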
